A study of Bos taurus with 8 samples.

Results

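The genes described here encode the enzymes of glycolysis, of the pentose phosphate pathway and of the steps that link glycolysis to the mitochondrion or run it backwards. They were taken by name: 35 genes were listed, 33 of them had a probe that could be matched to the gene, and all 33 passed the filter for testing, against 12603 named genes in the series and 10957 tested. The 33 genes had 104 probes, of which 101 were well above background on 2 or more arrays. HK2 and ALDOC had no named probe.

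Glycolysis splits glucose into pyruvate, and lactate dehydrogenase turns pyruvate into lactate when it is not oxidized in the mitochondrion. The pyruvate dehydrogenase complex feeds pyruvate into the citric acid cycle, and the pyruvate dehydrogenase kinases switch it off. The pentose phosphate pathway branches off at glucose phosphate and supplies NADPH and ribose, and many of these enzymes exist as isoforms that differ between tissues. In cattle the blastocyst, and its trophectoderm in particular, takes up glucose at a growing rate as it expands.

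RNA of 8 cell samples was measured on 1-colour Agilent bovine oligo arrays, 1 array per sample, all from HanWoo, a native cattle breed of Korea. The embryo-derived stem-like cells (eSLCs) came from blastocysts of 3 origins with 2 lines each: in vitro produced (IVP) embryos gave I2 at passage 35 and I9 at passage 30, nuclear transfer (NT) embryos gave N2 at passage 36 and N7 at passage 30, and parthenogenetic (PA) embryos gave P1 at passage 31 and P4 at passage 36. Somatic cells (SCs) were measured at passages 5 and 10. The eSLC lines grew on mitomycin-inactivated murine STO feeder cells in 3i medium, a mix of DMEM/F12 and neurobasal media with the supplements N2 and B27 and the inhibitors PD184352, SU5402 and CHIR99021, while the SCs grew in DMEM with fetal bovine serum. Cell type and culture medium therefore cannot be told apart in any comparison of eSLCs with SCs, and the share of feeder RNA in the eSLC samples is unknown. Each line is 1 sample, the labels do not say whether the SC passages were separate cultures, and the p-values therefore measure only the spread between these samples.

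The 11 of 12 trophectoderm markers that were called higher in eSLCs, among them CDX2 at a log2 difference of at least 9.40 (not well above background in the SCs), and the 12 of 14 fibroblast markers that were called lower separated the eSLCs from the SCs. The pluripotency markers went against the name of the cells in part: SOX2 fell by 2.91 on the log2 scale, and NANOG was at most at 35.4 in the lines and not well above background in the SCs. POU5F1 lay between 30.7 and 101 in 5 lines and at 898 in N7, above the SCs at 16.3 and 26.0 in every line, but its log2 difference of 2.05 did not pass the test (limma adjusted p = 0.164). The 75th percentile of the arrays lay between 1192 and 4092 scanner units, and between 71.2% and 76.7% of the spots were well above background. Slide 1 held both IVP lines, N7 and SC P5, and slide 2 both PA lines, N2 and SC P10. NT-eSLCs and SCs thus had 1 array on each slide, from which the slide could be fitted as a block, while the IVP lines shared 1 slide and the PA lines the other. I9 and N2, lines of different origin, correlated at 0.9939 over the tested genes, the closest of all pairs of arrays, and SC P5 and SC P10 correlated at 0.993.

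Most enzyme genes that differed between eSLCs and SCs were higher in eSLCs. The signals given below are background-subtracted intensities scaled so that the 75th percentile of each array is 1000, and a log2 difference is the mean over the 3 eSLC origins minus the mean of the SCs, from limma, with its SE. A gene was called at a Benjamini-Hochberg adjusted p under 0.05 over all tested genes and a difference of at least 2-fold. Of the 33 enzyme genes, 14 (42.4%) were called higher in eSLCs, against 19.7% of all tested genes. Another 2 genes (6.06%) were called lower, against 15.7% of all tested genes. The median log2 difference was 0.765 over the enzyme genes and 0.229 over all tested genes. The arrays of the groups did not overlap, with eSLCs above, for 18 enzyme genes, where 34% of all tested genes did so, and with eSLCs below for 6, where 23.6% of all tested genes did so. The count of genes called higher was 5 without SC P5, 7 without SC P10 and 6 with the SC arrays averaged as 1 sample. Over 22 alternatives fitted gene by gene, PGAM2, ENO2 and FBP2 kept their call in each, PFKFB3, LDHA, PC and PDK2 lost it in 1 each, and ALDOA, TALDO1 and PGK1 lost it in 13, 11 and 7. With the processed signal of the scanner files, which was run for counts alone, 1 enzyme gene was called higher and 0 lower. An array measures RNA per total RNA, so that fewer cells with a transcript and less of it per cell cannot be told apart.

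**Figure D1:**
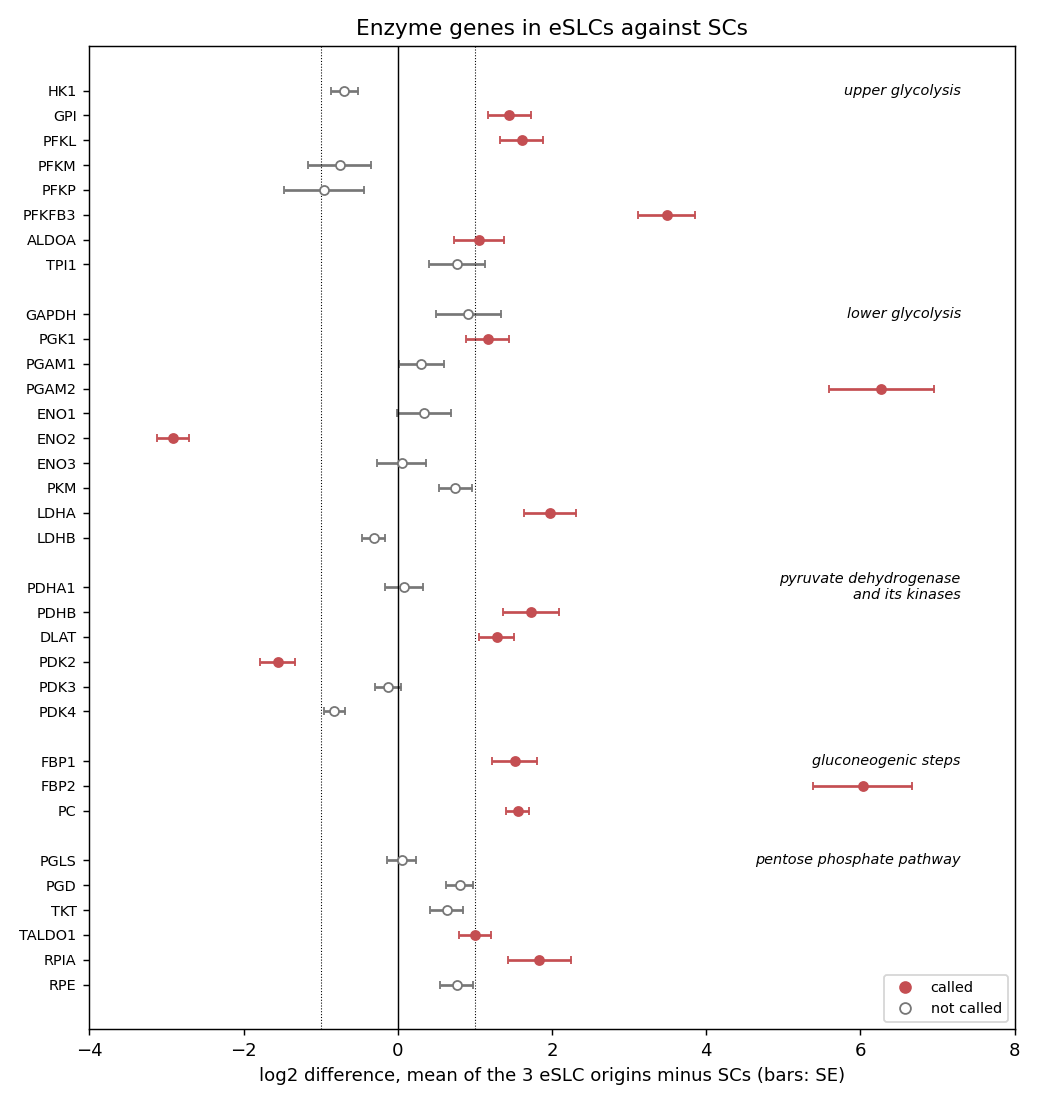
Log2 difference of each of the 33 enzyme genes, eSLCs minus SCs, with its SE from limma over 8 arrays, grouped by step of the pathway. Filled points are genes called at an adjusted p under 0.05 and at least 2-fold, dotted lines mark 2-fold. PGAM2 and FBP2 lie at 6.27 and 6.03, the other called genes lie between -2.91 and 3.49.

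In upper glycolysis, from glucose to the triose phosphates, 4 of 8 measured genes were called higher and 0 lower. Of all tested genes, 19.7% were called higher and 15.7% lower. Glucose phosphate isomerase (GPI) gave signals of 93950 in I2, 71820 in I9, 74560 in N2, 47790 in N7, 125200 in P1 and 75220 in P4, with SC P5 at 27330 and SC P10 at 29940. Every eSLC line was above both SC arrays, and the log2 difference was 1.45 ± 0.28 (limma adjusted p = 0.00829).

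Hexokinase, which phosphorylates glucose, was represented by HK1. Its signals were 22890 in I2, 23260 in I9, 20230 in N2, 14600 in N7, 18440 in P1 and 17330 in P4, with SC P5 at 31030 and SC P10 at 31070. HK1 was thus below the SCs in every line, by a log2 difference of -0.69 ± 0.17 (limma adjusted p = 0.0205), which is under 2-fold.

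Phosphofructokinase carries out the committed step, and its liver (PFKL), muscle (PFKM) and platelet (PFKP) forms did not move together. PFKL was at 53710 in I2, 42540 in I9, 47110 in N2, 27470 in N7, 70330 in P1 and 47390 in P4, with SC P5 at 14220 and SC P10 at 16200. The groups did not overlap, and PFKL rose by 1.61 ± 0.28 on the log2 scale (limma adjusted p = 0.0053). PFKP was at 4028 in I2, 4274 in I9, 4225 in N2, 1008 in N7, 3439 in P1 and 2503 in P4, with SC P5 at 5507 and SC P10 at 5834. All 6 lines were below the SCs, with N7 far below the other lines, but the log2 difference of -0.95 ± 0.52 did not pass the test (limma adjusted p = 0.18). Without N2 it was -1.30 (limma adjusted p = 0.00567) and without N7 -0.61 (limma adjusted p = 0.043), which is under 2-fold. In each of these fits the lone NT line was assumed to vary like the other groups. PFKM was at 776 in I2, 429 in I9, 333 in N2, 694 in N7, 1137 in P1 and 643 in P4, with SC P5 at 1185 and SC P10 at 919. P1 lay between the SC arrays, and the log2 difference of -0.75 ± 0.41 did not pass the test (limma adjusted p = 0.178).

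PFKFB3 makes fructose bisphosphate of the regulatory kind, which activates phosphofructokinase. It was at 34150 in I2, 20830 in I9, 25280 in N2, 17570 in N7, 61550 in P1 and 29900 in P4, with SC P5 at 3034 and SC P10 at 2194. The lowest line was above the higher SC array, and PFKFB3 rose by 3.49 ± 0.37 on the log2 scale, 11.2-fold (limma adjusted p = 0.00078). Its 3 probes gave log2 differences of 1.26, 3.49 and 3.56. With the dimmest probe in place of the brightest, PFKFB3 was no longer called (1.26, adjusted p = 0.091).

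Aldolase A (ALDOA), which cleaves fructose bisphosphate, was at 201500 in I2, 171200 in I9, 248900 in N2, 121200 in N7, 342100 in P1 and 234700 in P4, with SC P5 at 88270 and SC P10 at 115200. N7 was just above SC P10, and ALDOA rose by 1.05 ± 0.33 on the log2 scale (limma adjusted p = 0.0403), close to both limits. The call was lost in 13 of 22 alternatives. Triose phosphate isomerase (TPI1) lay between 91350 and 242600 in the lines, with N7 below SC P10, and its log2 difference of 0.76 ± 0.36 did not pass the test (limma adjusted p = 0.13).

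**Figure D2:**
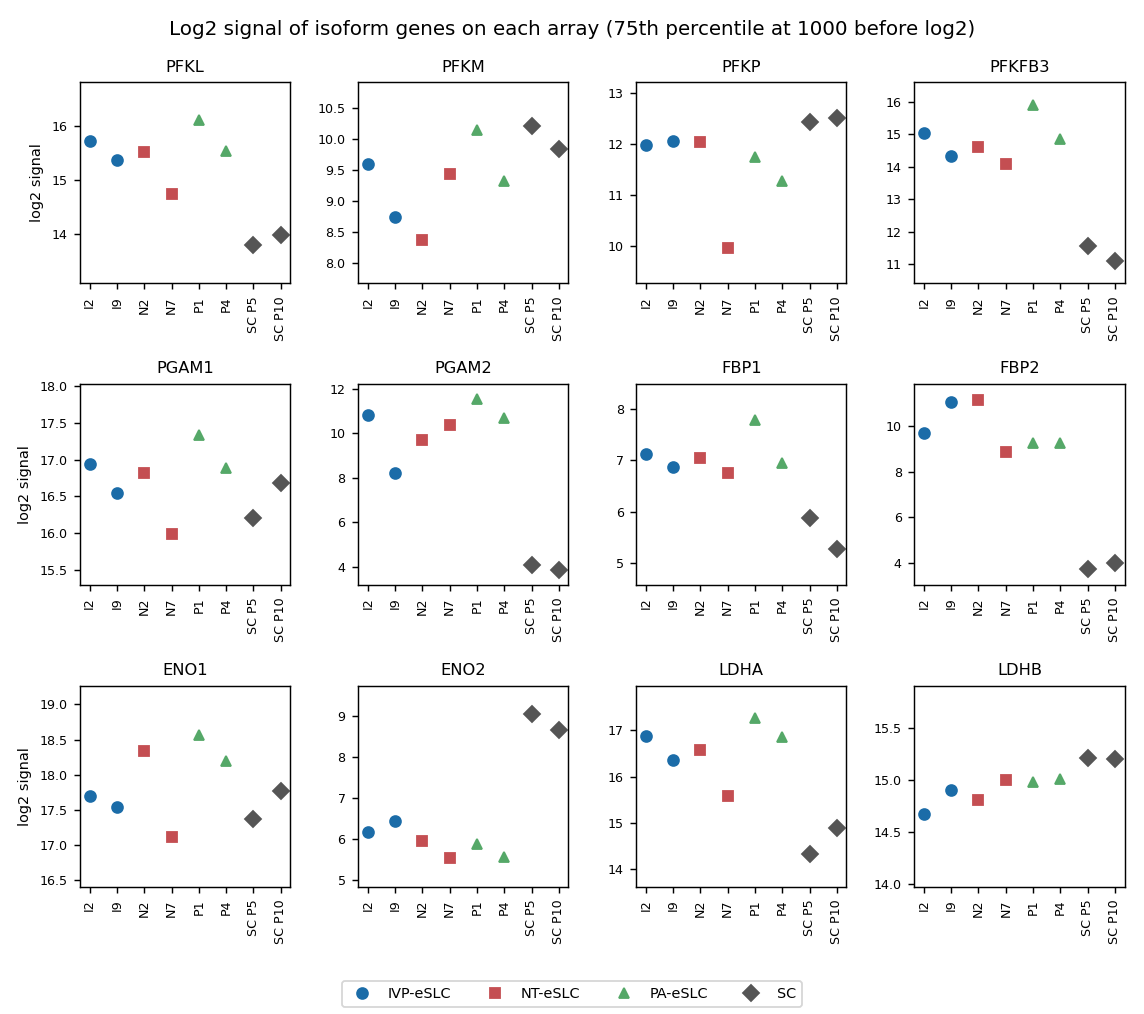
Log2 signal of 12 isoform or paired genes on each of the 8 arrays, by eSLC origin and SC, each panel with its own axis. PGAM2, FBP2, PFKFB3 and LDHA lie above the SC arrays in every line and ENO2 below, while the arrays of PGAM1 and ENO1 overlap.

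In lower glycolysis, from the triose phosphates to lactate, 3 of 10 measured genes were called higher and 1 lower. Over all tested genes the shares were 19.7% higher and 15.7% lower. Phosphoglycerate kinase (PGK1), which makes ATP, was at 103300 in I2, 68610 in I9, 67520 in N2, 37920 in N7, 94810 in P1 and 82790 in P4, with SC P5 at 32960 and SC P10 at 31340. N7 was again the lowest line, though above the SCs, and PGK1 rose by 1.17 ± 0.28 on the log2 scale (limma adjusted p = 0.0173). The call was lost in 7 of 22 alternatives, among them those without either SC array.

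Phosphoglycerate mutase has a widely expressed form, PGAM1, and a muscle form, PGAM2. PGAM2 was at 1840 in I2, 301 in I9, 843 in N2, 1337 in N7, 2963 in P1 and 1638 in P4, with SC P5 at 16.6 and SC P10 at 14.6, just above the floor of 13.3. Every line was far above the SCs, and PGAM2 rose by 6.27 ± 0.68 on the log2 scale, 77.3-fold (limma adjusted p = 0.000897). The lines differed among themselves by 9.86-fold, with I9 lowest. PGAM1 was at 125600 in I2, 95840 in I9, 115000 in N2, 65120 in N7, 164900 in P1 and 120700 in P4, with SC P5 at 75570 and SC P10 at 105300. The groups overlapped, and the log2 difference of 0.31 ± 0.30 did not pass the test (limma adjusted p = 0.429).

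Enolase has a widely expressed form (ENO1), a neuronal form (ENO2) and a muscle form (ENO3). ENO2 was at 72.8 in I2, 86.8 in I9, 62.6 in N2, 46.9 in N7, 59.6 in P1 and 47.8 in P4, with SC P5 at 524.5 and SC P10 at 405.5. No line came near the SCs, and ENO2 fell by 2.91 on the log2 scale with an SE of 0.21, that is 7.53-fold (limma adjusted p = 0.000184). The second probe of ENO2 lay between 13.3 and 21.5 on the 8 arrays and gave 0.14. ENO1 was at 213000 in I2, 190900 in I9, 332700 in N2, 141500 in N7, 389000 in P1 and 300800 in P4, with SC P5 at 170000 and SC P10 at 224100. The groups overlapped, and the log2 difference of 0.34 ± 0.35 did not pass the test (limma adjusted p = 0.456).

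ENO3 gave opposite readings with different probes. The brightest was at 8583 in I2, 4658 in I9, 5485 in N2, 3298 in N7, 10000 in P1 and 7488 in P4, with SC P5 at 6157 and SC P10 at 5715, a log2 difference of 0.05 ± 0.32 (limma adjusted p = 0.904). The other 3 probes of ENO3 were lower in all 6 lines than in both SC arrays, with log2 differences of -2.77, -2.42 and -2.94. With the dimmest probe, ENO3 was called lower (-2.94, limma adjusted p = 0.000907). The files do not show which of these readings stands for the transcript.

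Lactate dehydrogenase A (LDHA), the form that favours lactate, was at 120300 in I2, 84020 in I9, 97550 in N2, 49200 in N7, 157800 in P1 and 118100 in P4, with SC P5 at 20560 and SC P10 at 30480. The groups did not overlap, and LDHA rose by 1.97 ± 0.34 on the log2 scale, 3.93-fold (limma adjusted p = 0.00511). Its 3 probes gave 1.97, 1.99 and 2.17. LDHB, the heart form, was at 26090 in I2, 30530 in I9, 28630 in N2, 32720 in N7, 32250 in P1 and 32940 in P4, with SC P5 at 37800 and SC P10 at 37730. All lines were slightly below the SCs, and the log2 difference of -0.31 ± 0.15 did not pass the test (limma adjusted p = 0.136).

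Pyruvate kinase (PKM) was above the SCs in every line, between 55540 and 113200 against 47550 and 50470, with a log2 difference of 0.75 ± 0.21 that passed the test but was under 2-fold (limma adjusted p = 0.0311). GAPDH, the dehydrogenase of triose phosphate that is often used as a reference gene, was at 220300 in I2, 210800 in I9, 399200 in N2, 132600 in N7, 415300 in P1 and 298400 in P4, with SC P5 at 123800 and SC P10 at 152900. N7 lay between the SC arrays, and the log2 difference of 0.92 ± 0.42 did not pass the test (limma adjusted p = 0.123). Without N7 it was 1.18 (limma adjusted p = 0.00893), with N2 as the lone NT line assumed to vary like the other groups.

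The brightest probes of these genes lay near the top of the scale of the scanner. The used probe of GAPDH reached 90.4% of the signal of the brightest spot on I2 and 78.1% on N7, against 55.8% on SC P5 and 45.3% on SC P10. No spot carried the scanner's saturation flag. The 3 brightest of the 8 probes of GAPDH gave log2 differences between 0.40 and 0.92 and the other 5 between 1.28 and 1.83, and the dimmest gave 1.82 (limma adjusted p = 0.0244), which is past both limits. ENO1 divided likewise, with 0.34 and 0.38 for its 2 brightest probes and between 0.87 and 1.01 for the other 3. The other probes of ALDOA gave 1.46 to 1.55 where the brightest gave 1.05, and the dimmest probe of TPI1 gave 1.05 (adjusted p = 0.0174) where the brightest gave 0.76. Whether compression of bright signals made these differences smaller was not tested.

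**Figure D3:**
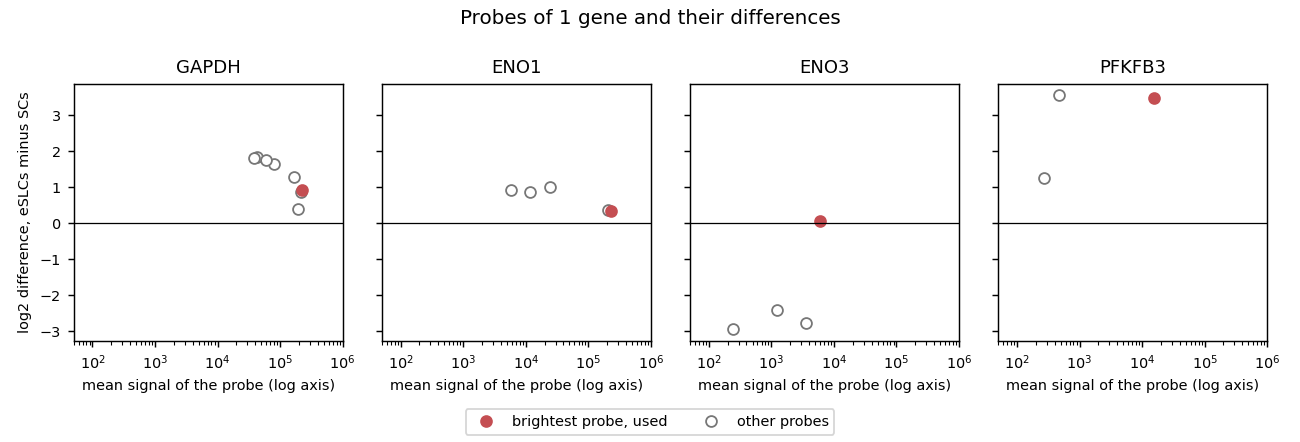
Log2 difference of each probe of GAPDH, ENO1, ENO3 and PFKFB3, eSLCs minus SCs, against the mean signal of the probe over the 8 arrays on a log axis. Filled points are the brightest probes, which stand for the genes. The 5 dimmer probes of GAPDH and the 3 dimmer probes of ENO1 give larger differences than the brighter ones, and 3 of the 4 probes of ENO3 lie below -2.

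Among the subunits of the pyruvate dehydrogenase complex and its kinases, 2 of 6 genes were called higher and 1 lower. Over all tested genes the shares were 19.7% higher and 15.7% lower. PDHB, a subunit of the dehydrogenase itself, was at 24220 in I2, 12110 in I9, 8498 in N2, 16460 in N7, 15420 in P1 and 19940 in P4, with SC P5 at 4731 and SC P10 at 4468. The groups did not overlap, and PDHB rose by 1.73 ± 0.36 on the log2 scale (limma adjusted p = 0.0108). PDHA1, the partner subunit, lay between 7987 and 14010 in the lines and at 8730 and 9009 in the SCs (0.08 ± 0.25, limma adjusted p = 0.818), although its dimmer probes gave up to 1.09. DLAT, the transferase core of the complex, was at 825 in I2, 712 in I9, 726 in N2, 981 in N7, 1076 in P1 and 1307 in P4, with SC P5 at 317 and SC P10 at 449. All lines were above the SCs, and DLAT rose by 1.28 ± 0.22 on the log2 scale (limma adjusted p = 0.00528).

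Of the kinases, PDK2 was at 954 in I2, 645 in I9, 749 in N2, 530.2 in N7, 1480 in P1 and 1388 in P4, with SC P5 at 2818 and SC P10 at 2442. Each line was below both SC arrays, and PDK2 fell by 1.56 on the log2 scale with an SE of 0.23 (limma adjusted p = 0.00281). Its second probe was at the floor on all arrays. PDK3 was at 2960 in I2, 2354 in I9, 1734 in N2, 1576 in N7, 2938 in P1 and 2411 in P4, with SC P5 at 2496 and SC P10 at 2458, so that the groups overlapped (-0.13 ± 0.17, limma adjusted p = 0.56). PDK4 was at the floor of 13.3 and not well above background in any of the 6 lines, with SC P5 at 25.1 and SC P10 at 22.1. It was at least 1.77-fold higher in SCs with the lines taken at the floor (limma adjusted p = 0.00479), a bound under 2-fold, and was not called. The 6 lines share the same floor value, so this p-value measures no spread among them. With each line taken instead at the lowest signal well above background on its own array, the bound was 2.35-fold. The largest difference among the other probes of PDK4 was -0.51.

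The 3 enzyme genes listed for steps of gluconeogenesis, FBP1, FBP2 and PC, were called higher, against 19.7% of all tested genes. Of the enzymes that make phosphoenolpyruvate, which belong to the wider pathway, PCK2 fell by 4.42 on the log2 scale (limma adjusted p = 0.00136). PCK1 did not pass the test (1.86 ± 1.16, limma adjusted p = 0.231). PCK1 was at 1546 in N7 and at 60.21 to 140.6 in the other lines, with SC P5 at 60.65 and SC P10 at 24.17. Fructose bisphosphatase reverses the step of phosphofructokinase and has a liver form, FBP1, and a muscle form, FBP2. FBP2 was at 842 in I2, 2119 in I9, 2287 in N2, 470.5 in N7, 624 in P1 and 609 in P4, and at the floor of 13.3 in SC P5 and at 15.9 in SC P10. The lines were far above the SCs, and FBP2 rose by 6.03 ± 0.64 on the log2 scale, 65.3-fold (limma adjusted p = 0.000818). I9 and N2, the closest pair of arrays, had the highest values. The second probe of FBP2 was between 49.8 and 244 in the lines and at the floor in both SC arrays.

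FBP1 was at 140 in I2, 117 in I9, 132 in N2, 108 in N7, 221 in P1 and 124 in P4, with SC P5 at 58.8 and SC P10 at 38.7. The groups did not overlap at these low signals, and FBP1 rose by 1.51 ± 0.29 on the log2 scale (limma adjusted p = 0.00779). Pyruvate carboxylase (PC), which turns pyruvate into oxaloacetate, was at 15610 in I2, 13830 in I9, 10640 in N2, 12450 in N7, 15550 in P1 and 15790 in P4, with SC P5 at 4984 and SC P10 at 4457. The lines differed by 1.48-fold at most, and PC rose by 1.55 ± 0.15 on the log2 scale (limma adjusted p = 0.000614). The dimmest of its 3 probes gave 0.88.

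PGAM2 and FBP2 are known as muscle forms. Of 7 tested skeletal muscle markers, 1 was called higher (DES, desmin, 3.11) and 0 lower, where 19.7% of all tested genes were called higher, and the median log2 difference was 0.646 against 0.229 over all tested genes. MYOG (0.94, limma adjusted p = 0.014) and CKM (0.65, limma adjusted p = 0.106) lay above the SCs in every line at under 2-fold, and TNNT1 and MYH3 were well above background in 4 and 5 lines and in 0 SC arrays. ACTA1 went the other way and lay below the SCs in every line, also at under 2-fold (-0.95, limma adjusted p = 0.0205). MYOD1 was between 1336 and 2229 in the lines and at 2083 and 1718 in the SCs, MYF5 was well above background on 1 array, and the summed signal of the list was 5522 to 14870 in the lines and 10930 to 11890 in the SCs. ENO2 is known as a neuronal form, and 4 of 6 tested neural markers were called lower in eSLCs, where 15.7% of all tested genes were. The summed signals of these markers were 1233 to 4292 in the lines and 35950 to 50580 in the SCs. NES alone gave 34220 in SC P5 and 48770 in SC P10, while TUBB3 was at 127.9 and 201. SYP (0.42) and GFAP (0.85) were not called. FBP1 is a form of liver and kidney, and of 6 tested markers of these organs 0 were called higher and 1 lower. The part of these cell types in the results was not tested.

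In the pentose phosphate pathway 2 of 6 genes were called higher and 0 lower, against 19.7% and 15.7% of all tested genes. Both called genes belong to the branch that rearranges sugars without oxidation. Ribose phosphate isomerase (RPIA) was at 2594 in I2, 1457 in I9, 1036 in N2, 2712 in N7, 1451 in P1 and 1710 in P4, with SC P5 at 457 and SC P10 at 512. The groups did not overlap, and RPIA rose by 1.84 ± 0.41 on the log2 scale (limma adjusted p = 0.0136). Its highest signal was in N7. Transaldolase (TALDO1) was at 46710 in I2, 40670 in I9, 36970 in N2, 31260 in N7, 61710 in P1 and 41890 in P4, with SC P5 at 22240 and SC P10 at 19930. TALDO1 rose by 1.00 ± 0.20 on the log2 scale (limma adjusted p = 0.00963), at the very limit of 2-fold, and the call was lost in 11 of 22 alternatives.

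The other genes of the pathway were above the SCs in every line but under 2-fold, except PGLS. Phosphogluconate dehydrogenase (PGD), of the oxidative branch, lay between 55580 and 76590 in the lines and at 42320 and 34670 in the SCs (0.80 ± 0.18, limma adjusted p = 0.0123). Ribulose phosphate epimerase (RPE) lay between 609 and 1032 and at 449 and 532 (0.76 ± 0.22, limma adjusted p = 0.0305). Transketolase (TKT) lay between 67370 and 115000 and at 57290 and 53160 (0.63 ± 0.22, limma adjusted p = 0.0579). PGLS, the lactonase, lay between 3187 and 4457 in the lines and at 3795 and 3651 in the SCs (0.05 ± 0.19, limma adjusted p = 0.845).

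The 3 origins were then compared with the SCs one by one, with the same SC arrays in each comparison. In IVP-eSLCs 15 of 33 enzyme genes were called, 13 higher and 2 lower, against 32.3% of all tested genes called. In NT-eSLCs 11 were called, 9 higher and 2 lower, against 29.8% of all tested genes. In PA-eSLCs 17 were called, 16 higher and 1 lower, against 35.2% of all tested genes. PFKL, PFKFB3, PGAM2, LDHA, DLAT, FBP1, FBP2, PC and RPIA were called higher in each of the 3 comparisons, and ENO2 lower. GPI, PGK1, PDHB and TALDO1 were called in IVP- and PA-eSLCs, ALDOA, PKM and RPE in PA-eSLCs, and PDK2 in IVP- and NT-eSLCs. The count in IVP-eSLCs was 6 without I2, without SC P5 or without SC P10, the count in NT-eSLCs was 7 without I2, I9, SC P5 or SC P10, and the count in PA-eSLCs was 9 without P1 and 8 without either SC array. PGK1 had a log2 difference of 1.39 ± 0.34 in IVP-eSLCs, 0.65 ± 0.34 in NT-eSLCs and 1.46 ± 0.34 in PA-eSLCs.

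Between the origins themselves, 0 enzyme genes and 0% of all tested genes were called in either comparison. By chance alone, a share of 0.05 of genes has an unadjusted p under 0.05. Between NT- and IVP-eSLCs 306 of 10957 tested genes had an unadjusted limma p under this limit, 1 of them an enzyme gene (PDK3). Between PA- and IVP-eSLCs 568 of 10957 did, 1 of them an enzyme gene. It was PDK2, with a log2 difference of 0.87, PA minus IVP (limma adjusted p = 0.852). Differences between origins were therefore not detectable with 2 lines per origin, and the gaps between call counts against the SCs do not show that the origins differ. Of the enzyme genes named for their wide range among the lines, PGAM2 had log2 differences from the SCs of 5.58 ± 0.84 in IVP-, 6.09 ± 0.84 in NT- and 7.15 ± 0.84 in PA-eSLCs, and FBP2 had 6.52 ± 0.79, 6.16 ± 0.79 and 5.41 ± 0.79.

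N7 and P1 stood at opposite ends of the range for many of these genes. N7 was the lowest of the 6 lines in 21 of 33 enzyme genes, and it was the lowest in 26.8% of all tested genes. P1 was the highest in 17, and it was the highest in 24.8% of all tested genes. The median deviation from the mean of the 6 lines was -0.43 on the log2 scale in N7 and 0.43 in P1 over the enzyme genes, and -0.06 and 0.03 over all tested genes. The range over the lines was at least 2-fold in 20 of 33 enzyme genes (60.6%) and in 45.6% of all tested genes.

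**Figure D4:**
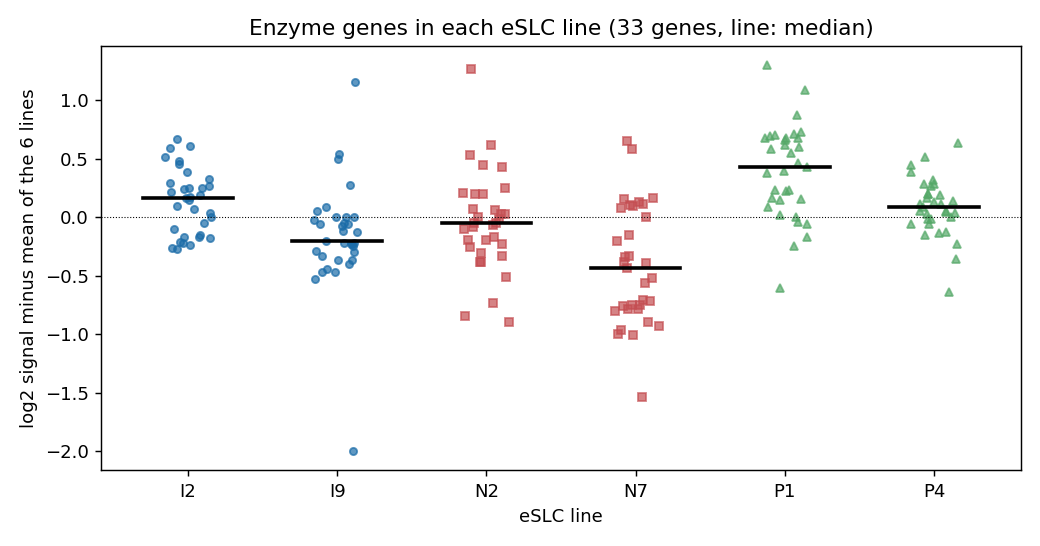
Deviation of each of the 33 enzyme genes from its mean over the 6 eSLC lines, in log2 signal, with the median of each line as a bar. The median is -0.43 in N7 and 0.43 in P1.

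Brightness and cell markers moved in part with this pattern, and their part in it was not tested. N7 had the highest 75th percentile of all arrays, 4092 scanner units, and P1, at 1210, the second lowest. Of the 11 enzyme genes whose used probe reached 25% of the brightest spot on an array, N7 was the lowest line in 10 and P1 the highest in 9. Among the 22 dimmer genes the counts were 11 and 8. With the dimmest probe of each gene that was well above background on all 8 arrays, N7 was the lowest line in 18 of 33 and P1 the highest in 15. Genes with no other such probe kept the brightest. N2 had the lowest 75th percentile of all arrays (1192) and a median deviation of -0.05. It was the highest line in 3 enzyme genes and the lowest in 4. Some markers of liver and of early lineages also set N7 apart: HNF4A was at 9022 in N7 and at 23.4 or less on every other array, APOA1 at 112600 against at most 6823, and GATA4 at 2918 against at most 180. TF was at 459.6 in N7 against at most 25.27 on the other arrays, and SERPINA1 at 191.3 against at most 65.58. ALB was at 23.8 in N7 and at 18.38 or less elsewhere. Other liver markers went the other way, with AFP at 15.9 and TTR at 22.2 in N7, the lowest of the lines. Among the enzyme genes PGAM2, PDHB and PC were not lowest in N7, and PDHA1 and RPIA were highest in it.

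Of the other genes of these pathways, 29 were tested, and 6 were called higher and 2 lower, against 19.7% and 15.7% of all tested genes (median log2 difference 0.356). The share called higher was thus near that of all tested genes. HKDC1, a hexokinase, was at 6529 to 22160 in the lines and at 25.8 in SC P5 and the floor of 13.3 in SC P10, a log2 difference of 9.15 ± 0.52 (limma adjusted p = 7.4e-05). GPD1L and GPD2, which pass glycolytic carbon and electrons on as glycerol phosphate, rose by 7.50 and 2.19 on the log2 scale. TIGAR, a phosphatase that turns sugar towards the pentose phosphate pathway, rose by 2.98, with the SCs near the floor at 15.4 and 17.6. PDK1, a kinase of pyruvate dehydrogenase, rose by 1.48. PCK2, the mitochondrial enzyme of phosphoenolpyruvate synthesis and given above, was at 1131 to 4257 in the lines and at 46840 and 48320 in the SCs. PDP1, a phosphatase that opposes the kinases, was at or near the floor in the lines, at 13.3 to 15.5, and at 33.3 and 32.7 in the SCs. Its log2 difference of -1.28 therefore depends on the floor.

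Of 11 tested glucose and lactate transport genes, 8 were called higher and 1 lower, against 19.7% and 15.7% of all tested genes. The median log2 difference of these transport genes was 2.84. SLC2A1, the common glucose transporter, was at 18220 to 48710 in the lines and at 1132 and 924 in the SCs, a log2 difference of 4.72 ± 0.33 (limma adjusted p = 0.000172). SLC2A3, a transporter of high affinity, rose by 4.90, with signals of 83290 to 165200 in the lines and 3222 and 4090 in the SCs. SLC2A5, a fructose transporter, was at 1689 to 4481 in the lines and at the floor and not well above background in the SCs, a log2 difference of at least 7.71. The lactate transporters SLC16A1 and SLC16A3 rose by 3.70 and 3.54. SLC2A6 fell by 6.47. Of 13 genes outside glycolysis listed for the response to low oxygen, 2 were called higher, BNIP3 (2.10) and ANKRD37 (3.28). Another 3 were called lower, ADM (-4.62), P4HA2 (-1.75) and ARNT (-1.11), where 19.7% and 15.7% of all tested genes were called higher and lower. Their median log2 difference was 0.147, against 0.229 over all tested genes.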

How the data were processed

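RNA of 8 samples was hybridized to 8 one-colour Agilent arrays. The authors quantified the scans with Feature Extraction and normalized them with GeneSpring GX. The deposited scanner files hold linear intensity values, not normalized between arrays, and the deposited series matrix holds intensity values whose normalization is not described further. In that matrix SC P5 and SC P10 differ by under 1% for 19 of 33 enzyme genes, against 2 of 33 in the scanner signals. The processed signal did not follow the background-subtracted signal in 6 files (rank correlation 0.161 to 0.216, against 0.973 and 0.971 in I2 and N2), so the background-subtracted signal was used.

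Control spots and outlier spots were removed, which left 43653 probes. Signals were averaged per probe, divided by the 75th percentile of the array, multiplied by 1000, floored at 13.3 (each array's dimmest signal flagged as well above background was found, and the highest of them taken) and put on the log2 scale. RefSeq accessions gave gene names to 26743 probes, and the brightest probe of a gene stands for it. A gene entered the test where some condition had it well above background on both arrays, and the test used limma 3.58.1 in R 4.3.3, with a mean per condition and all 8 arrays in 1 fit. The step was tested on simulated data. Alternatives were other scalings, backgrounds, filters, probes and tests, the slide as a block, and arrays left out. The scanner files do not hold the mean signal, so normexp (offset 50) used the median signal.

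The enzyme genes and the gene lists were chosen with earlier results of these data known. Enzyme genes that were called, and their isoforms, are given on every array, other enzyme genes by range. The limit of 25% of the brightest spot, the use of the dimmest probe and the fit without I9 and N2 were chosen after the data were seen. The dimmest probe was taken among a gene's probes well above background on all 8 arrays, and else the brightest was kept. Figures were drawn with matplotlib 3.10.9 in Python 3.11.15.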

Additional observations from a re-analysis of the deposited data

Results flagged for a closer look

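Over the 6 eSLC lines, 2 of 33 enzyme genes had 1 line far from the others, and chance alone flags about 1 in 20. The other 5 lines had PFKP signals of 2503 to 4274, and N7 had 1008, a gap of 0.63 of the whole range on the log2 scale. For FBP1 the range was 108.3 to 139.7 without P1, which had 221.2, a gap of 0.643 of the whole log2 range. Both gaps were just past Dixon's limit for 6 values.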

How the results depend on the processing

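Of the 791 log2 differences computed under alternatives, 710 kept direction and side of the limits, 55 lost the call, 6 gained it and 20 changed sign. Genes called higher in eSLCs numbered 14, and 8 with the series matrix, 1 with the processed signal, 6 with the SC arrays averaged, and 5 to 15 when 1 array was left out. Those called lower numbered 2, and 0 with the processed signal and 4 with no fold limit, and 2 to 3 when 1 array was left out. For IVP-, NT- and PA-eSLCs in turn, the counts of 15, 11 and 17 became 7, 6 and 6 with the series matrix, 0, 1 and 0 with the processed signal, 6, 6 and 7 with the SC arrays averaged, and 0, 0 and 6 with the methods' t-test after Benjamini-Hochberg adjustment. Unadjusted, that test gave 12, 6 and 17. For NT-eSLCs the count was 7 with no filter and 6 with the compared conditions alone. With 1 array left out the counts ran from 6 to 15, 7 to 10 and 8 to 19.

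Sign changes were limited to ENO3, PDHA1, PGAM1 and PGLS, none of which was called in the reported fit, although ENO3 was called lower with the mean of its probes and with the dimmest probe. With quantile normalization PGAM1 was at -0.16, ENO3 at -0.10, PDHA1 at -0.12 and PGLS at -0.0499. ENO3 was at -2.02 with the mean of its probes, -2.94 with the dimmest probe and -0.27 within slide 1. PDHA1 was at -0.0306 within slide 2. PGLS was at -0.55 with the series matrix, -0.0373 with the mean of its probes, -0.0791 without I9 and N2, -0.12 with the dimmest probe and -0.11 within slide 1. Leaving out 1 array gave ENO3 from -0.0945 to 0.20, PDHA1 from -0.0587 to 0.21 and PGLS from -0.0196 to 0.12. Counts between the origins stayed at 0 under each alternative run.

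The median log2 difference of all tested genes was 0.229, 0.122 with quantile normalization and 0.0562 with the series matrix, and that of the enzyme genes was 0.765, 0.444 and 0.507. The slide as a block moved no count by over 1.5 times. No paired analysis was possible because the labels give every sample the same replicate number. In the comparisons of 2 arrays with 2, no regrouping of arrays can give 1 gene an exact p under 0.05. Signals of PDK4, PGAM2 and FBP2 in the dim group lay at or near the floor, so that their fold depends on it. Outside the enzyme genes this also held for PDP1, TIGAR, HKDC1, SLC2A5 and CDX2, among others.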
